A study of Mus musculus with 4 samples.

Results

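The genes described here are 36 genes of the unfolded protein response and the integrated stress response, chosen by symbol out of the 17780 genes of the deposited lung expression table, and all 36 were present. They fall by known role into 5 stress sensors and transcription factors, 11 targets of the transcription factor ATF4, 15 chaperones and folding enzymes of the endoplasmic reticulum (ER), and 5 genes of ER-associated degradation and protein translocation. Lung RNA came from male C57BL/6 mice, young adults when treatment began, that were given vehicle (a carboxymethylcellulose suspension), amiodarone, dabigatran (given as its oral prodrug dabigatran etexilate) or amiodarone + dabigatran. The drugs were given by mouth on weekdays, and the labels give 28 days of treatment for all 4 groups, whereas the methods of the study date the tissue slightly earlier. Amiodarone is an anti-arrhythmic drug and dabigatran is a thrombin inhibitor. Each group is 1 library of polyadenylated RNA from whole left lung, so no group has a replicate, how many mice gave RNA to a library is not given in the sources used here, and only animals alive at the end of treatment could be sampled.

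When unfolded proteins accumulate in the ER, the membrane sensors PERK (Eif2ak3), IRE1 (Ern1) and ATF6 (Atf6) start the unfolded protein response. PERK also belongs to the kinases of the integrated stress response, which phosphorylate the translation factor eIF2, slow protein synthesis in general and favour translation of Atf4 mRNA. ATF4 then drives genes of amino acid synthesis, redox balance and cell death, while ATF6 and the spliced form of XBP1 drive chaperone and degradation genes. In the lung, alveolar type 2 cells, club cells and plasma cells carry a heavy secretory load, and macrophages also express this machinery. The table holds 1 value per gene, so it separates neither the spliced and unspliced forms of Xbp1 mRNA nor the amount of ATF4 protein from that of its mRNA.

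Estimated reads on genes summed to between 17498486 and 18903401 per library. Levels are given as FPKM, in which the fragments on a gene are scaled by transcript length and by the size of the library, on a linear scale. Where 4 values follow each other they are in the order vehicle, amiodarone, dabigatran and the combination amiodarone + dabigatran. A difference between 2 libraries is given as the ratio of FPKM with an exact Clopper-Pearson 95% interval from the reads of those libraries. Reads are not independent molecules, so the interval covers counting error only and compares libraries, not treatments. A gene was called higher or lower when its ratio was at least 1.5-fold and its interval excluded 1. All 36 genes averaged 1 FPKM or more across the libraries, as did 13183 genes of the table, which serve as the background. The tissue label was checked with 10 lung markers, all of which passed the same minimum, and the alveolar type 2 gene Sftpc stood between 19587 and 20385 FPKM.

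Markers of other cell types differed between the libraries and are given first. The summed level of 12 macrophage markers was 3533 FPKM in the vehicle library, 5225 under amiodarone, 3831 under dabigatran and 4943 under the combination, and 8 of the 12 were called higher with amiodarone, where their median ratio was 2.23. Most of each sum is Lyz2, a lysozyme gene, and the other 11 markers summed to 136, 318, 138 and 326 FPKM. Summed over 8 neutrophil markers the levels were 95.1, 597, 71.6 and 434 FPKM in the same order, and 6 of the 7 past the minimum were called higher with amiodarone. Plasma cell and B lymphocyte markers summed to 186, 71.2, 163 and 120 FPKM (9 genes measured), with 6 of 8 past the minimum called lower with amiodarone. Most of each sum is the B lymphocyte genes Cd79a, at 86.1, 28.9, 70.7 and 51.9 FPKM, and Cd79b, at 44.3, 16.1, 38.5 and 29 FPKM. Jchain, a plasma cell gene, was not called, at 0.874-fold vehicle (0.727 to 1.05), whereas Mzb1 was called lower, at 0.443 (0.321 to 0.605). No defining marker of these lists was listed at 0 in every library, although Ly6g and Tnfrsf17 stayed below the minimum. In whole lung, more RNA per cell cannot be told apart from more cells of a type, and the part of cell composition in the results that follow was not tested. Of 5 club cell markers 3 were called lower with amiodarone, as were 2 of 7 fibroblast markers and 1 of 6 T lymphocyte markers. Of 8 alveolar type 2 markers 1 was called higher, and none of 7 endothelial markers was called. Beyond counting error, 6 of the 8 alveolar type 2 markers were above vehicle and 2 below, against 19.5% and 30.0% of all genes. Of the 7 endothelial markers 4 were above and 2 below.

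Promoter windows were searched for the motifs known for ATF4 and for the ER stress response, and the stretches with a match are shown before the values. Windows from 250 bases before to 50 bases after the gene start (RefSeq, GRCm38.p6) were found for 33 of the 36 genes and searched on both strands. The ATF4 composite element, TGATGNAA, was in the windows of 3 of 11 ATF4 targets (Trib3, Chac1 and Asns) and of Herpud1, against 4.51% of the 27025 genes with a window. The ER stress element, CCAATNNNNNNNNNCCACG, was in those of 7 of the 13 ER chaperones and folding enzymes with a window (Hspa5, Hsp90b1, Calr, Canx, Pdia6, Dnajc3 and Creld2) and of Syvn1, against 0.137% of all genes. Its second form, ATTGGNCCACG, was found for Dnajb11 and Herpud1, against 0.0444% of all genes. The unfolded protein response element TGACGTGG had no match among the 33, against 0.714% of all genes. Over the 10492 genes past the minimum with a window, the shares of these 4 motifs were 2.75%, 0.181%, 0.0858% and 1.06%, in the order given. The 36 genes were listed by their known role in these responses, so the shares are descriptive and no enrichment was tested. No matches in these windows overlapped. The stretches below are read 5′ to 3′ on the strand of the gene, with each match in capitals, and show Chac1 and Asns for the ATF4 element, Herpud1 for both kinds in 1 promoter, and 4 genes for the ER stress element. A match in Chac1, in the first capitals of Herpud1 and in Calr lies on the opposite strand and therefore appears as its reverse complement.
Chac1 (chr2:119351034-119351071, + strand): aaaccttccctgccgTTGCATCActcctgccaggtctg
Asns (chr6:7693210-7693247, - strand): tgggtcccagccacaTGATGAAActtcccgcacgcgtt
Herpud1 (chr8:94386302-94386402, + strand): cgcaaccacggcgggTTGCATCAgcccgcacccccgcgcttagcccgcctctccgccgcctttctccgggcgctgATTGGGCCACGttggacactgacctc
Hspa5 (chr2:34772010-34772058, + strand): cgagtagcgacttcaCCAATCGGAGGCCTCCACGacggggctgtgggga
Calr (chr8:84847060-84847108, - strand): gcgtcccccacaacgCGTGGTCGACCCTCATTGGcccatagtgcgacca
Pdia6 (chr12:17266476-17266524, + strand): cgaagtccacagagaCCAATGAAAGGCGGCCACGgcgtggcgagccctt
Syvn1 (chr19:6046517-6046565, + strand): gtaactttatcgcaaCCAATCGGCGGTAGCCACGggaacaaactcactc

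**Figure D1:**
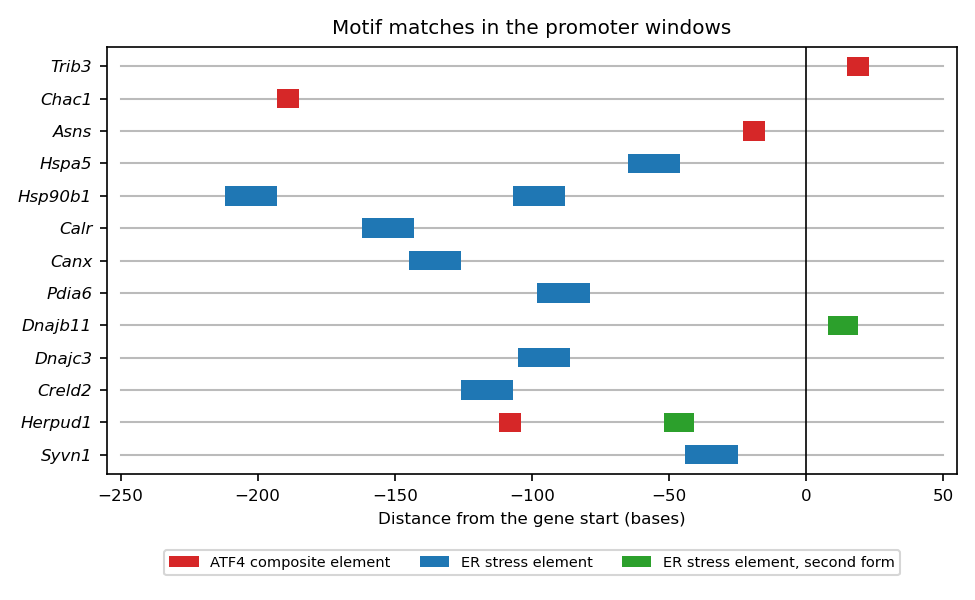
Position of each motif match in the promoter windows of the 13 genes that hold one, as distance from the gene start in bases (bars: matches on either strand, grey lines: the window searched). The matches of Trib3 and Dnajb11 lie after the start and the others before it.

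The 5 genes called higher in at least 1 comparison, Ddit4, Sesn2, Phgdh, Psat1 and Sdf2l1, have none of the 4 motifs in these windows, which says only that the letters are not there. Levels differed by role. ER chaperones were the most abundant, from 8.74 FPKM for Sdf2l1 to 273 FPKM for Calr with vehicle, and together took 0.354% of all reads. The ATF4 targets took 0.0312% of reads and ranged from 2.11 FPKM for Chac1 to 70.1 FPKM for Atf5. In the amiodarone + dabigatran library the chaperones took 0.413% of reads (interval 0.410 to 0.416), against 0.369% with amiodarone and 0.365% with dabigatran.

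**Figure D2:**
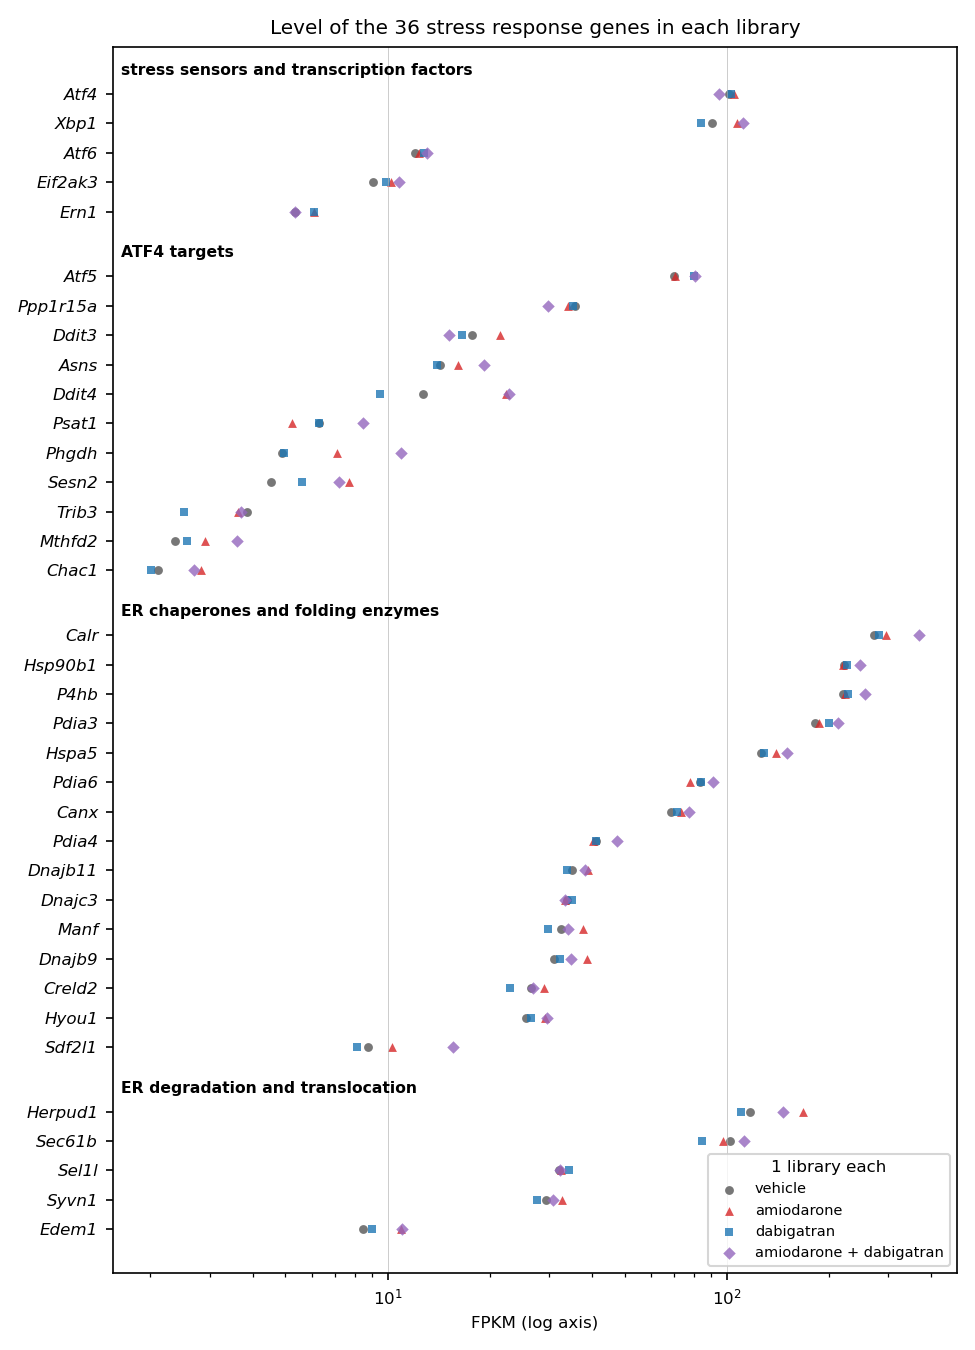
Level of each of the 36 genes in FPKM (log axis) in the libraries of vehicle, amiodarone, dabigatran and amiodarone + dabigatran, 1 point per library. Most genes have their 4 points close together. Ddit4, Phgdh, Sesn2 and Herpud1 are among those spread between libraries with and without amiodarone, and for Sdf2l1 the combination stands apart.

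With amiodarone alone, 2 of the 36 genes were called higher than with vehicle, both of them ATF4 targets, and none was called lower. Over the background, 4.97% of genes were called higher and 6.36% lower in that comparison. Without the fold threshold, 17 of the 36 were above vehicle beyond counting error and 1 was below, against 19.5% and 30.0% of all genes. The median ratio over the 36 genes was 1.11, and over all genes it was 0.966.

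Ddit4, on chromosome 10 of GRCm38.p6 from 59949675 to 59951770, encodes REDD1, an inhibitor of mTORC1 that also responds to hypoxia and glucocorticoids. It stood at 12.7 FPKM in the vehicle library, 22.3 under amiodarone, 9.50 under dabigatran and 22.9 under the combination. Both libraries with amiodarone lay above both without. Its ratio of amiodarone to vehicle was 1.75 (1.54 to 1.996). The combination against dabigatran, a pair that shares no library with the first, gave 2.41 (2.09 to 2.78).

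Sesn2, on chromosome 4 from 132492804 to 132510456, encodes sestrin 2, a leucine sensor upstream of mTORC1 that is also a p53 target. Its levels were 4.54 FPKM in the vehicle library, 7.70 under amiodarone, 5.60 under dabigatran and 7.18 under the combination. The groups again did not overlap, but the library with dabigatran alone was already 1.23-fold vehicle (1.02 to 1.49). The ratio was 1.70 (1.43 to 2.02) for amiodarone against vehicle and 1.28 (1.09 to 1.51) for the combination against dabigatran, the latter below the fold required for a call.

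Phgdh and Psat1 encode the first enzymes of serine synthesis. For Phgdh, on chromosome 3 from 98313171 to 98339969, the levels were 4.90 FPKM in the vehicle library, 7.08 under amiodarone, 4.96 under dabigatran and 10.9 under the combination. Vehicle and dabigatran were nearly equal, and the combination was the highest. The ratio of amiodarone to vehicle, 1.44 (1.18 to 1.78), was just short of a call, while the combination was called higher than dabigatran at 2.21 (1.83 to 2.67) and than amiodarone at 1.55 (1.31 to 1.82). With a pseudocount of 1 the latter was 1.48 and no longer called.

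Psat1, on chromosome 19 from 15905123 to 15925059, followed another order, with 6.27 FPKM in the vehicle library, 5.24 under amiodarone, 6.30 under dabigatran and 8.48 under the combination. Only the combination stood apart. It was called higher than amiodarone, at a ratio of 1.62 (1.36 to 1.93), and was 1.35-fold dabigatran (1.14 to 1.60), whereas amiodarone against vehicle gave 0.836 (0.690 to 1.01). Asns, the asparagine synthetase, was at 14.2, 16.1, 14.02 and 19.2 FPKM in the order vehicle, amiodarone, dabigatran and combination. Mthfd2, a mitochondrial folate enzyme, was at 2.37, 2.89, 2.57 and 3.61 FPKM. Neither was called in any comparison, yet for Asns and Mthfd2 both libraries with amiodarone lay above both without, and the combination was the highest of the 4.

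The genes nearest to the death arm of the response showed no common direction. Ddit3, which encodes the proapoptotic factor CHOP, stood at 17.8 FPKM in the vehicle library, 21.5 under amiodarone, 16.6 under dabigatran and 15.2 under the combination. The amiodarone library was the highest, at 1.21-fold vehicle (1.03 to 1.42), and the combination was 0.708-fold amiodarone (0.599 to 0.835), and neither was a call. Trib3, on chromosome 2 from 152337425 to 152344060, encodes a pseudokinase induced by ATF4 and CHOP and had 3.86, 3.63, 2.51 and 3.70 FPKM in the same order. It was called lower with dabigatran than with vehicle, at 0.650 (0.492 to 0.856), and the other 3 libraries lay close together. With a pseudocount of 1 the ratio was 0.722 and no longer a call. Chac1, which degrades glutathione, was counted from 54 to 80 reads, and none of its 4 intervals excluded 1. Ppp1r15a, the eIF2 phosphatase subunit GADD34 that ends the response, had 35.7, 34.0, 35.1 and 29.8 FPKM, and Atf5 70.1, 70.4, 80.0 and 80.9 FPKM. For Atf5 the 2 libraries with dabigatran were the higher ones, at 1.14-fold (1.08 to 1.21) without and 1.15-fold (1.09 to 1.22) with amiodarone.

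The sensors and their transcription factors had ratios between 0.875 and 1.33 in the 4 comparisons, and none was called. Atf4 itself was at 102 FPKM in the vehicle library, 105 under amiodarone, 103 under dabigatran and 95.2 under the combination. Its ratio of amiodarone to vehicle, 1.03, lay within counting error (0.982 to 1.09), and the combination was below the other 3 libraries. Xbp1 had 90.5, 107, 84.2 and 112 FPKM, with both amiodarone libraries above the others, at 1.18-fold vehicle (1.13 to 1.24) and 1.33-fold dabigatran (1.27 to 1.39). Eif2ak3 was at 9.05, 10.2, 9.91 and 10.8 FPKM, Atf6 at 12.1, 12.4, 12.8 and 13.1 FPKM, and Ern1 at 5.32, 6.06, 6.08 and 5.32 FPKM. For Atf6 and Ern1 no interval excluded 1.

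**Figure D3:**
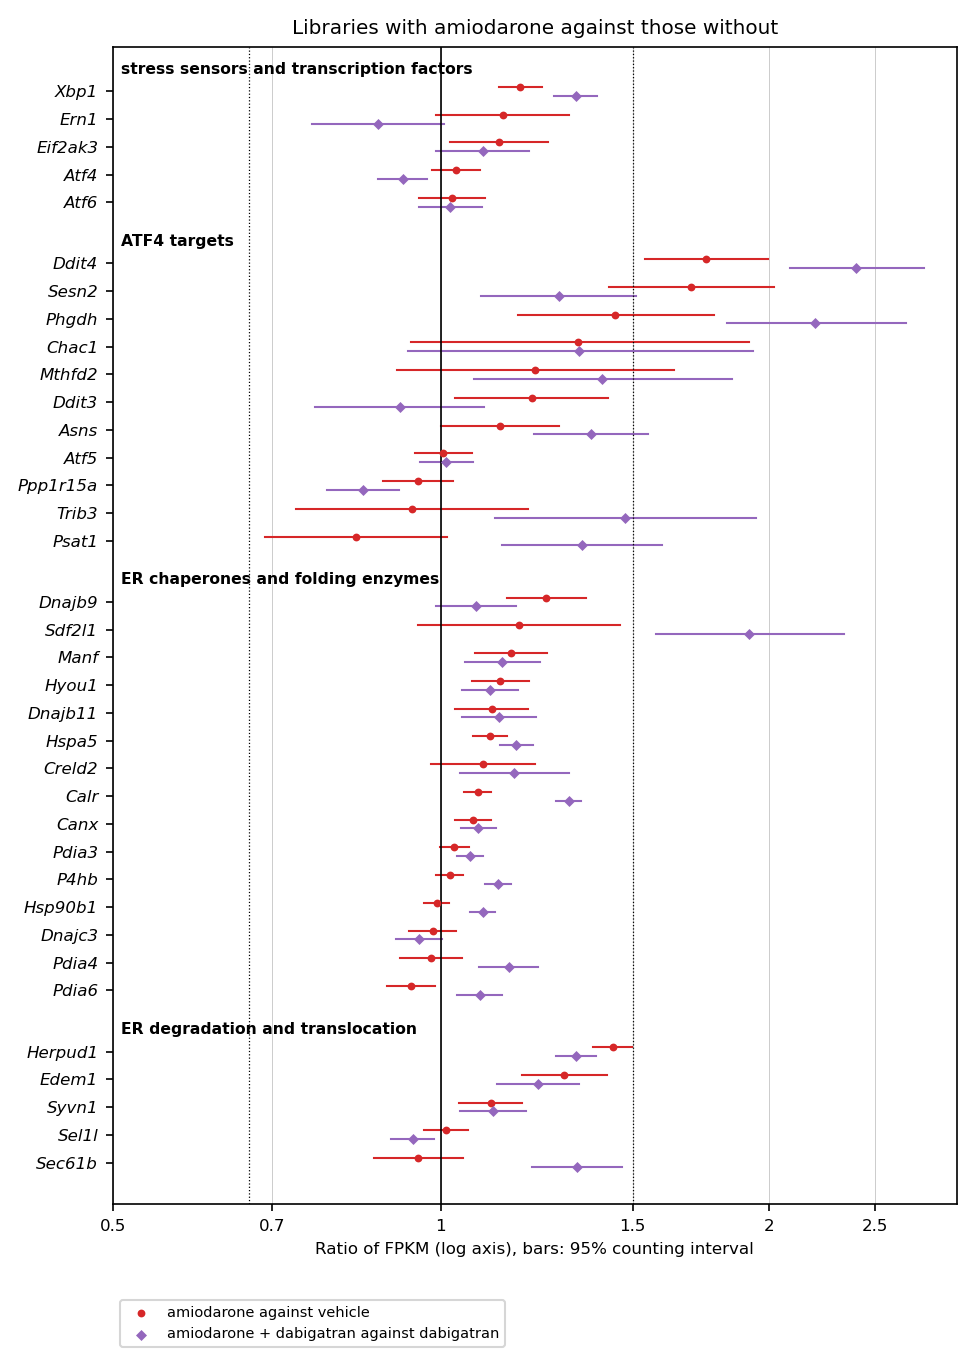
Ratio of FPKM for amiodarone against vehicle (red circles) and for amiodarone + dabigatran against dabigatran (purple diamonds), 2 pairs that share no library, with 95% counting intervals (log axis, dotted lines at 1.5-fold). Ddit4 lies beyond the dotted line in both pairs, Sesn2 in the first only, Phgdh and Sdf2l1 in the second only.

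The ER chaperones and folding enzymes lay close to vehicle with amiodarone alone, between 0.939-fold for Pdia6 and 1.25-fold for Dnajb9, and none was called. Their median ratio was 1.08. Of the 15 genes, 7 were above vehicle beyond counting error and 1 was below. Hspa5, which encodes BiP, the chaperone that keeps the sensors inactive, had 126 FPKM in the vehicle library, 140.1 under amiodarone, 129 under dabigatran and 151 under the combination. Its ratio of amiodarone to vehicle was 1.11 (1.07 to 1.15). Hsp90b1 (GRP94) stood at 222, 220.2, 227 and 248 FPKM, and P4hb, a protein disulfide isomerase, at 219.7, 224, 227 and 256 FPKM. For both, amiodarone against vehicle lay within counting error, and the combination was the highest library.

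Among the chaperones, the largest ratios of the combination to amiodarone and to dabigatran belonged to Sdf2l1, on chromosome 16 from 17130138 to 17132383. Sdf2l1 encodes an ER protein that acts with BiP. It was at 8.74 FPKM in the vehicle library, 10.3 under amiodarone, 8.15 under dabigatran and 15.6 under the combination. The combination stood above the other 3 libraries and was called higher than dabigatran, at 1.92 (1.57 to 2.34), and than amiodarone, at 1.52 (1.27 to 1.82). After each library was divided by its median ratio, the latter was 1.48 and no longer called, and with a pseudocount of 1 it was 1.47. It was the chaperone with the fewest reads, from 152 to 311.

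Calr, the calcium-binding lectin chaperone calreticulin, had 273, 295, 281 and 368 FPKM for vehicle, amiodarone, dabigatran and the combination. The combination was again the highest, at 1.25-fold amiodarone (1.22 to 1.28) and 1.31-fold dabigatran (1.28 to 1.34). Canx, the membrane-bound partner of calreticulin, was at 68.3, 73.1, 71.6 and 77.5 FPKM. The disulfide isomerases Pdia3, Pdia4 and Pdia6 were between 1.14-fold and 1.17-fold amiodarone in the combination. By contrast, the IRE1 target Dnajb9, with 31.1, 38.8, 32.2 and 34.7 FPKM, and Manf, a secreted ER stress protein with 32.5, 37.7, 29.8 and 34.0 FPKM, were highest with amiodarone alone. Creld2 had 26.5, 29.0, 22.9 and 26.8 FPKM, with the lowest value under dabigatran alone. The BiP cochaperones Dnajb11 and Dnajc3 and the BiP exchange factor Hyou1 had ratios between 0.954 and 1.13 in the 4 comparisons.

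Among the degradation genes, Herpud1 was nearest to a call. Herpud1, on chromosome 8 from 94386429 to 94395371, encodes an ER membrane protein that organizes the degradation complex, and its promoter holds both an ATF4 element and an ER stress element of the second form, as printed above. It stood at 117 FPKM in the vehicle library, 168 under amiodarone, 109.9 under dabigatran and 146 under the combination. Both amiodarone libraries lay above both others, with amiodarone alone the highest, at 1.44-fold vehicle (1.38 to 1.498), and with the combination at 0.870-fold amiodarone (0.837 to 0.903). Edem1, which extracts misfolded glycoproteins for degradation, was at 8.47, 10.99, 9.0 and 11.05 FPKM, or 1.30-fold vehicle with amiodarone (1.19 to 1.42) and 1.23-fold dabigatran with both drugs (1.13 to 1.34). Syvn1, the ubiquitin ligase HRD1, was at 29.4, 32.7, 27.5 and 30.7 FPKM, and its partner Sel1l at 32.1, 32.4, 34.3 and 32.3 FPKM. Sec61b, a subunit of the translocation channel, was at 102, 97.5, 84.7 and 113 FPKM, lowest with dabigatran alone.

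Set side by side, amiodarone-to-vehicle ratios ran from 0.836 to 1.75 over the ATF4 targets and from 0.939 to 1.44 over the ER genes. In amiodarone against vehicle the median log2 ratio was 0.28 over the 11 ATF4 targets, 0.11 over the 15 chaperones, 0.15 over the 5 degradation and translocation genes and 0.18 over the 5 sensors and factors, with -0.05 over all genes. In the combination against dabigatran the medians were 0.43, 0.17, 0.30 and 0.03, with -0.01 over all genes. The median absolute log2 ratio of amiodarone to vehicle was 0.28 for ATF4 targets and 0.12 for the 20 ER chaperone and degradation genes together, against 0.18 over all genes. The ATF4 targets have lower levels and so wider counting intervals, and these differences in range and in size of change were not tested.

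**Figure D4:**
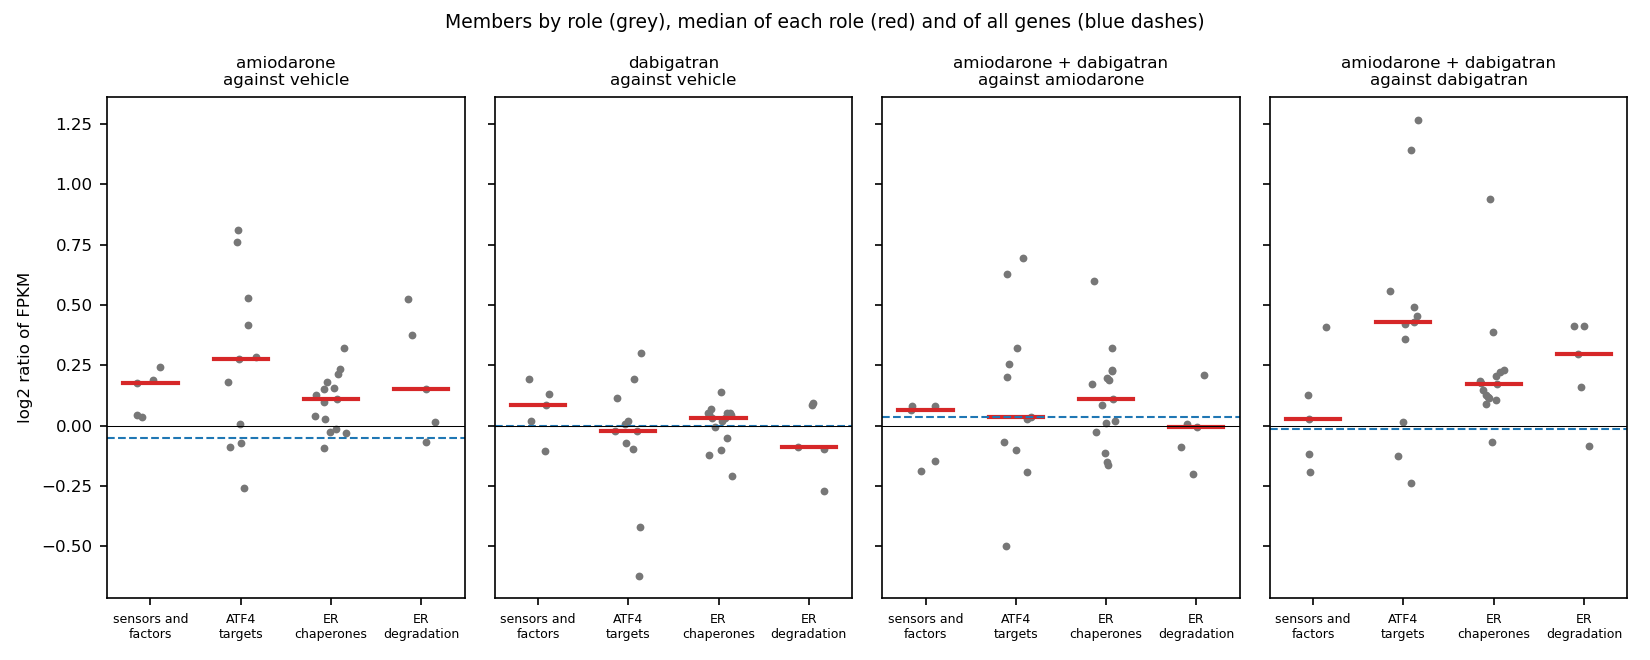
Log2 ratio of FPKM of each gene (grey points) by role in the 4 comparisons, with the median of each role (red bars) and of all genes past the minimum (blue dashes). In the comparison of the combination with dabigatran the ATF4 targets have a median of 0.43 and the chaperones a median of 0.17.

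The libraries can also be read by whether amiodarone was given. For 20 of the 36 genes both libraries with amiodarone lay above both without, and for 2, Ppp1r15a and Dnajc3, both lay below. Over all genes 21.9% lay above and 31.3% below in this way. Of the 107 other genes of these pathways given further below, 44 lay above and 18 below. By role, 6 of 11 ATF4 targets, 9 of 15 chaperones, 3 of 5 degradation and translocation genes and 2 of 5 sensors and factors lay above. The libraries on each side differ in dabigatran and are not replicates. After division of each library by its median ratio to the others, no gene lay below.

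With dabigatran alone, 1 of the 36 genes was called, Trib3, which was lower than with vehicle. Over all genes 1.0% were called higher and 1.03% lower in this comparison. Beyond counting error, 7 of the 36 were above vehicle and 7 below, against 15.2% and 13.4% of all genes, and the median ratio was 1.01. Ddit4 was at 0.747-fold vehicle (0.636 to 0.876) and Sec61b at 0.828-fold (0.750 to 0.914), neither of them called.

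When dabigatran was added to amiodarone, 3 of the 36 genes were called higher than with amiodarone alone, Psat1, Phgdh and Sdf2l1, and none lower. Over all genes 2.08% were called higher and 1.65% lower. Beyond counting error 15 of the 36 were higher and 6 lower, against 21.1% and 14.9% of all genes, and 9 of the 15 higher ones were chaperones or folding enzymes. The 6 lower ones were Atf4, Ddit3, Ppp1r15a, Dnajb9, Manf and Herpud1. This comparison shares the amiodarone library with that of amiodarone and vehicle, so a low or high value in that library enters both. Likewise the vehicle library serves both drugs given alone, and the combination library is read against each drug.

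The combination against dabigatran also gave 3 genes called higher, Ddit4, Phgdh and Sdf2l1, and none lower, where 4.0% of all genes were called higher and 3.69% lower. Beyond counting error 25 of the 36 were higher and 3 lower, against 19.5% and 23.3% of all genes. Of the 15 chaperones and folding enzymes 13 were higher and none was lower. The amiodarone + dabigatran library held the highest value of the 4 for 21 of the 36 genes, against 23.1% of all genes, and for 10 of the 15 chaperones and folding enzymes. In this comparison 9 of 12 macrophage markers and all 7 neutrophil markers past the minimum were called higher. Of 8 plasma cell and B lymphocyte markers 5 were called lower and 1, Pou2af1, higher, at 1.54 (1.33 to 1.79). Also called lower were 3 of 7 fibroblast markers, the endothelial marker Kdr, at 0.633 (0.612 to 0.654), and the airway secretory marker Bpifa1, at 0.337 (0.323 to 0.352). The part of these cell types in the comparison was not tested.

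**Figure D5:**
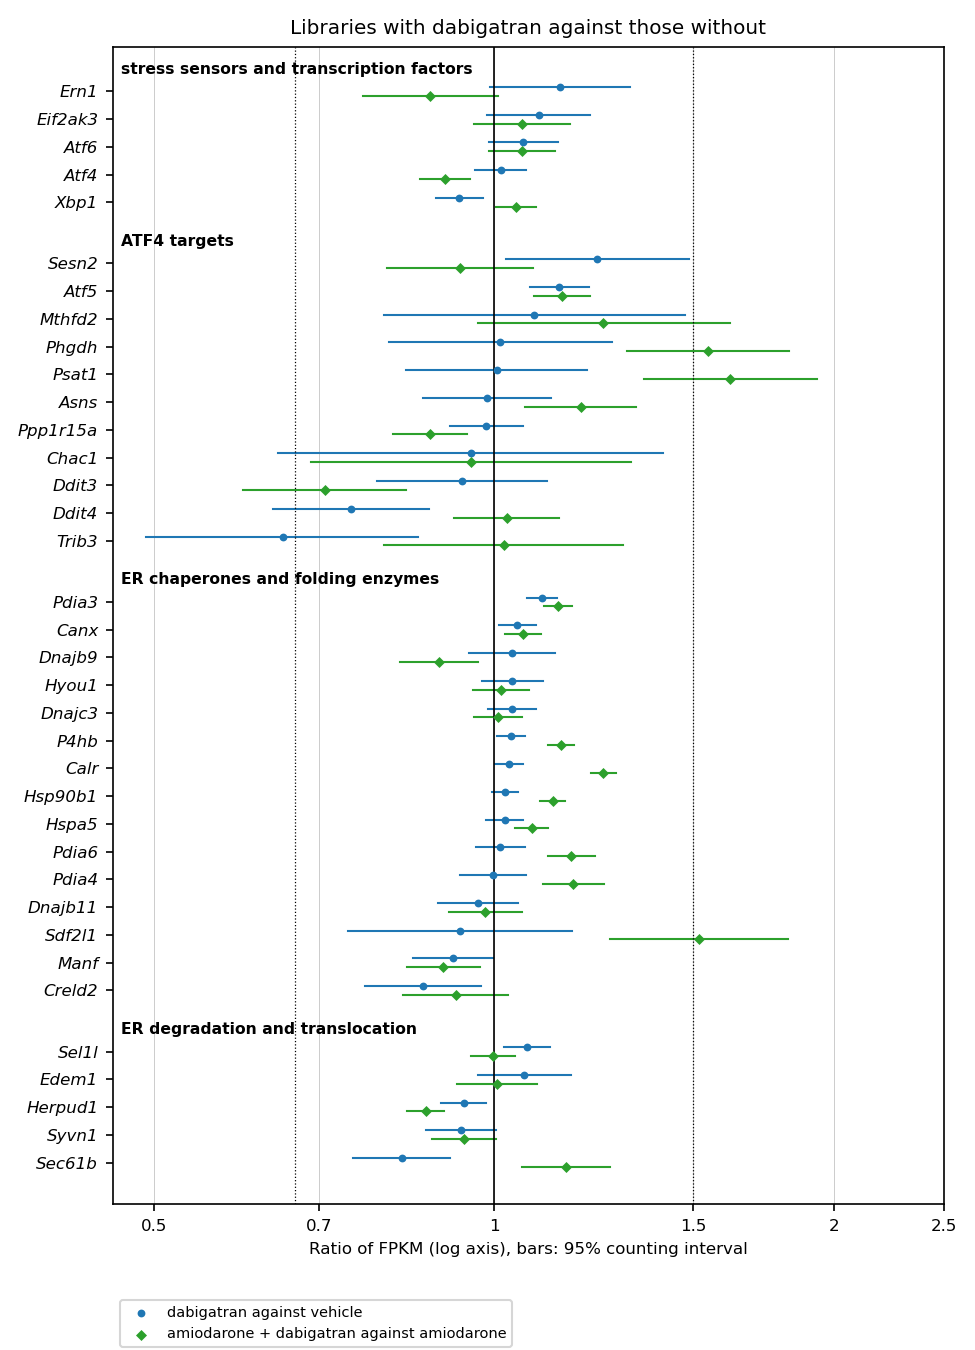
Ratio of FPKM for dabigatran against vehicle (blue circles) and for amiodarone + dabigatran against amiodarone (green diamonds), 2 pairs that share no library, with 95% counting intervals (log axis, dotted lines at 1.5-fold). Trib3 lies beyond the lower line in the first pair, and Psat1, Phgdh and Sdf2l1 beyond the upper line in the second.

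Other genes of the same pathways, from lists drawn up by function but with earlier results of these data known, were mostly near vehicle with amiodarone. Of 107 such genes past the minimum, 8 were called higher and 2 lower with amiodarone, against 4.97% and 6.36% of all genes, and their median ratio was 1.02, against 0.966 over all genes. The highest value was that of Gdf15, a stress cytokine induced by ATF4 and CHOP and also by p53, with 1.0 FPKM in the vehicle library, 12.6 under amiodarone, 0.99 under dabigatran and 6.89 under the combination. Its ratio was 12.6 (7.82 to 21.7) with 18 reads in the vehicle library, and the combination was called lower than amiodarone, at 0.546 (0.439 to 0.677). Atf3, a stress-induced transcription factor named here after its values were seen, had 10.2, 12.2, 11.8 and 5.72 FPKM, and its combination was also called lower than amiodarone, at 0.468 (0.395 to 0.554). Eif2ak2, the double-stranded RNA kinase PKR of the integrated stress response and an interferon-induced gene, was at 5.18, 8.47, 5.74 and 5.41 FPKM. It rose with amiodarone, at 1.64 (1.44 to 1.86), and the combination was called lower than amiodarone, at 0.639 (0.565 to 0.721). Of the 107 pathway genes, these 3 were called lower with both drugs than with amiodarone, against 1.65% of all genes. Only 1 was called higher, against 2.08% of all genes, Pycr1, an enzyme of proline synthesis also named after its values were seen. Pycr1 had 1.21, 1.04, 1.71 and 2.02 FPKM, with a ratio of 1.94 (1.30 to 2.93) from 40 and 73 reads.

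Of 13 genes of amino acid transport and synthesis past the minimum, Cth and Slc7a5 were called higher with amiodarone and none was called lower, while 7 lay below vehicle beyond counting error, as did 30.0% of all genes. Cth, which makes cysteine, had 1.99, 4.06, 1.97 and 4.30 FPKM, and the leucine transporter gene Slc7a5 had 3.33, 5.39, 3.25 and 6.30 FPKM. Gpt2, an alanine aminotransferase, was at 4.42, 2.97, 4.52 and 3.18 FPKM, and the arginine transporter gene Slc7a1 at 3.98, 2.97, 3.57 and 3.61 FPKM. Among 13 aminoacyl-tRNA synthetase genes, Wars was called higher, at 1.502 (1.44 to 1.57), and it is also known as an interferon-induced gene. The other 12 lay between 0.803-fold and 1.15-fold vehicle.

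In the ER lists, Stt3b, a catalytic subunit of oligosaccharyltransferase, was called higher with amiodarone, with 35.9, 61.8, 37.0 and 49.8 FPKM. Fkbp14, at 5.41, 12.2, 6.56 and 8.55 FPKM, and Fkbp11, at 5.05, 10.5, 6.15 and 8.58 FPKM, both prolyl isomerases of the ER, were also called higher. The 2 genes called lower with amiodarone were Ddr2, a collagen receptor gene, at a ratio of 0.651 (0.609 to 0.696), and Derl3. Derl3, a degradation gene abundant in plasma cells, had 1.87, 1.1, 2.2 and 1.36 FPKM. Its ratio was 0.588 (0.349 to 0.977), with 42 reads in the vehicle library and 27 under amiodarone. It is also among the plasma cell and B lymphocyte markers counted above. None of the 11 genes for ER stress processing and adaptors was called with amiodarone. The other genes at the ends of these pathway lists were not called with amiodarone either. Those above vehicle were Nupr1, at 1.42, Bak1, at 1.26, Edem3, Ube2g2, Stc2, Sars, Bax and Sec61g, and Eif2ak4 and Eif2s1 were near 1, at 1.01 and 1.001. Those below vehicle were Creb3l1, at 0.689, Yars, Bbc3, Txndc5, Pdia5, Vcp, Wfs1, Lars, Ostc and Stt3a.

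Heat shock genes of the cytosol and mitochondrial stress chaperones served as the nearest other stress programmes. With amiodarone none of 12 cytosolic heat shock genes and none of 8 mitochondrial genes was called, and their median ratios were 1.02 and 0.978. Hspa8, the constitutive cytosolic chaperone, was nearest to a call, at 1.49-fold vehicle (1.47 to 1.52). Division by the median-ratio factors, 1.01 for vehicle and 0.976 for amiodarone, would lift Hspa8 past 1.5-fold. The absence of a call for Hspa8 thus depends on the scaling. Its levels were 480.3 FPKM in the vehicle library, 718 under amiodarone, 465 under dabigatran and 564 under the combination. Next to it Hspa1b was at 1.32-fold vehicle, and the lowest were Hspb1, at 0.729, and Hsph1, at 0.780. Of the mitochondrial genes Hspe1 and Lonp1 were the highest, at 1.04 and 1.02, and Clpp and Dnaja3 the lowest, at 0.848 and 0.911. In the combination against dabigatran, 1 of the 12 cytosolic genes was above beyond counting error and 6 were below, against 19.5% and 23.3% of all genes. Of the 8 mitochondrial genes 2 were above. Hspa1b was called lower with both drugs, at 0.652 (0.532 to 0.799) against dabigatran and 0.596 (0.489 to 0.725) against amiodarone. With 1 library per group, no test of the difference between these lists and the 36 genes could be made.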

How the data were processed

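Poly(A)+ RNA from lung was sequenced on DNBseq, with 1 library in each of 4 groups assigned from the treatment labels. The authors mapped reads to GRCm38.p6 with HISAT and to reference genes with Bowtie2, and deposited RSEM estimated counts and normalized values. The deposited normalized values were read as FPKM, because reads per unit of value differed between libraries by 1 factor (1.07 for amiodarone against vehicle) equal to the ratio of total reads. The 8 columns of means over 2 libraries were not used.

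Estimated counts were rounded to whole numbers for the exact Clopper-Pearson 95% intervals, and no pseudocount was added to ratios. A count of 0 allows up to 3 reads, 1.71e-05% of the vehicle library. Since each group is 1 library, no p-value was computed. Calls required at least 1.5-fold, an interval excluding 1 and a mean of at least 1 FPKM. The call rule was tested on simulated data with counting error only, which hold no variation between animals or between libraries. Members and lists were chosen with earlier results of these data known. Named genes were, by rule, all 36 members and, per list, the 2 highest and 2 lowest ratios of amiodarone to vehicle. Of the marker lists only genes that a sentence turns on are named. Atf3, Pycr1, Lyz2, Ly6g, Tnfrsf17, Cd79b and Mzb1 were named outside the rule after their values were seen. Python 3.11.15, pandas 2.3.3 and scipy 1.17.1 were used. Promoter sequences and coordinates came from RefSeq tables of GRCm38.p6.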

Additional observations from a re-analysis of the deposited data

Results flagged for a closer look

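For 3 genes the same drug went with ratios on opposite sides of 1 in the 2 pairs of libraries that differ by it, each beyond counting error, and the difference between the pairs was not tested across animals. Pdia6, a protein disulfide isomerase, was 0.939-fold vehicle with amiodarone alone and 1.09-fold dabigatran with both drugs. Xbp1 was 0.931-fold vehicle with dabigatran alone and 1.05-fold amiodarone with both drugs. Sec61b was 0.828-fold vehicle with dabigatran alone and 1.16-fold amiodarone with both drugs. All 6 ratios were below the 1.5-fold required for a call, and no group of 4 or more libraries existed in which 1 library could be set against its group.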

How the results depend on the processing

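No paired analysis was possible because each group holds 1 library. Leaving out a replicate was not possible for the same reason. Calls rested on the fold threshold. At 1.2-fold, 7 genes were higher with amiodarone, 1 higher and 3 lower with dabigatran, 1 lower with both drugs than with amiodarone, and 13 higher with both drugs than with dabigatran. At 2-fold the counts were 0 for amiodarone higher, 0 for dabigatran lower and 0 for the combination higher than amiodarone. In the combination against dabigatran Ddit4, at 2.41, and Phgdh, at 2.21, were still called higher at 2-fold, and Sdf2l1, at 1.92, was not. With a pseudocount of 1, dabigatran gave 0 lower genes and the combination 1 gene higher than amiodarone, Psat1, with Phgdh and Sdf2l1 lost, and a minimum mean of 5 FPKM removed Trib3 and left 0 lower genes with dabigatran. Rescaling by the median ratio moved the median log2 ratio of chaperones with amiodarone to 0.16 and left 0 genes with both amiodarone libraries below the others. Reads scaled to library totals, no filter, a pseudocount of 0.1 and calls without the interval kept every other count within 1.5 times and every median within its counting interval. Rescaling also moved 7 single ratios beyond their counting intervals, all of chaperones and none of them called, and Hsp90b1 with amiodarone went from 0.991-fold to 1.02-fold vehicle.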
